A study of Mus musculus with 2 samples.

Results

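The 10 genes described here encode secreted Wnt ligands (Wnt4, Wnt5a, Wnt7b, Wnt9b and Wnt11), the R-spondins Rspo1 and Rspo3, the R-spondin receptors Lgr4 and Lgr5, and the Wnt antagonist Dkk1. They were chosen by name, and a peak was counted for a gene when its summit lay inside the gene, or when it lay within 100 kb of the gene and the gene's end was nearer than that of any other protein-coding gene in RefSeq. By this rule 73 of 61210 Brg1 cKO peaks and 96 of 77529 control peaks belonged to them, out of 21887 protein-coding genes. The peaks come from ATAC-seq, in which a transposase inserts adapters into accessible DNA, on tdTomato cells of the Wnt4 lineage isolated by FACS from mouse kidneys at E18.5, with 50000 cells per reaction. In the Brg1 cKO library the kidneys carried the genotype Brg1cKO/cKO, a conditional loss of Brg1, the ATPase subunit of the BAF chromatin remodelling complex. The other library came from control kidneys labelled WT control. No source used here gives the Cre driver, the number of animals or their sex. A peak list does not show whether Brg1 itself was lost, so the genotype labels could not be checked against the targeted gene. The cell type label of the control library reads only control, so that it too holds Wnt4-lineage cells rests on its title and the shared protocol.

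Each genotype had 1 library, so the spread between replicates is unknown and nothing could be tested between genotypes, and every difference below describes these 2 libraries. The depth of sequencing is unknown, since the lists hold peaks and no read counts. The cKO list is the shorter, with 0.79 times the peaks and 0.844 times the bases of the control list, and what was not called in it is not shown to be closed. In a mixed population, fewer cells of a type and a less open site per cell cannot be told apart. As a check of the sorted population, a peak lay within 1000 bp of an end of all 7 nephron epithelial markers listed for this purpose in both libraries. The same held for all 3 nephron progenitor, 4 stromal, 5 ureteric bud and collecting duct (Wnt11 among them) and 4 endothelial markers. Of 3 immune markers, 0 had such a peak in the cKO and 1, Csf1r, in the control library, and of 3 erythroid markers 2 had it in both. Open gene ends are shared by many cell types, so these counts do not measure the makeup of the sorted cells. The share of all genes with such a peak is not given here, so the marker counts have no background beside them.

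Wnt ligands are secreted lipid-modified proteins that bind Frizzled receptors and, in the canonical branch, the co-receptors Lrp5 and Lrp6, which stabilises beta-catenin and lets it act with TCF/LEF factors on DNA. R-spondins raise this signal: bound to an Lgr receptor, they draw away the ubiquitin ligases Znrf3 and Rnf43 that remove Frizzled from the cell surface. In the developing kidney, Wnt9b from the ureteric bud induces the surrounding mesenchyme, Wnt4 then drives the turn of that mesenchyme into epithelium, and Dkk1, a secreted protein that binds Lrp5 and Lrp6, restrains the canonical branch and is itself a target of beta-catenin.

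The RefSeq promoter windows (250 bases before to 50 after an annotated start, GRCm38.p6, the assembly of mm10) of Lgr4, Wnt4, Wnt11 and Dkk1 are shown because these promoters lay wholly under a peak in both libraries while peaks farther from the same genes differed. They are Lgr4, chr2:109917397-109917696, plus strand; Wnt4, chr4:137277385-137277684, plus strand; the upstream start of Wnt11, chr7:98834862-98835161, plus strand; and Dkk1, chr19:30549447-30549746, minus strand. Capitals mark matches, on either strand, to 7 motifs searched.
Lgr4: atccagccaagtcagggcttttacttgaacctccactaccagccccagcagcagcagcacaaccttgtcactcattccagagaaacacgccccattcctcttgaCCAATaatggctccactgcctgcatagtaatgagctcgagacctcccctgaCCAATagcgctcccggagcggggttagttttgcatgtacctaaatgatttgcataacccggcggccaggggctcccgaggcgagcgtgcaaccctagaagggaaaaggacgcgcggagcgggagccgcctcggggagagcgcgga
Wnt4: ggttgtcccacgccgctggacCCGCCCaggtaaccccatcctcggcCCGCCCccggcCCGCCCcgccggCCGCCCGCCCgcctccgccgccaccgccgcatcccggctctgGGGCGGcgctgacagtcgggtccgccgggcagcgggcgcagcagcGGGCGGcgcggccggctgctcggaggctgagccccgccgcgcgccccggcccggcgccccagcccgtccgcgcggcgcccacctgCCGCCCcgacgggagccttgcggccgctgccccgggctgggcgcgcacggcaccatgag
Wnt11: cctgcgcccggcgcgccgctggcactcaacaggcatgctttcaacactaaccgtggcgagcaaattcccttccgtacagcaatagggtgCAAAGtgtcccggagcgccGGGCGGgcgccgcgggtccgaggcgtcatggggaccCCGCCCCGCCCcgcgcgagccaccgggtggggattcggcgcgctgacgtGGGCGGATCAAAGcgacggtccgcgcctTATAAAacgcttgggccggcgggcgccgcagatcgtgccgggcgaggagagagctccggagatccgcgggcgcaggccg
Dkk1: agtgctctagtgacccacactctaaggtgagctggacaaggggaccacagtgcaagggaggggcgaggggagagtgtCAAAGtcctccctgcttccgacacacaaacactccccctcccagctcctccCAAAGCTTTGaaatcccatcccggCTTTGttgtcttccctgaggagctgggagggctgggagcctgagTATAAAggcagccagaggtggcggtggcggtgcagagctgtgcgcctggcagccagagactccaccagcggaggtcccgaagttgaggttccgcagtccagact

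The motifs were the TCF/LEF motif CTTTGAT and its core CTTTG, which it contains, the GC box GGGCGG, the CCAAT box, the TATA box TATAAA, the AP-1 motif TGANTCA and the E-box CAGCTG. The Dkk1 window held 4 CTTTG cores and a TATA box. The upstream Wnt11 window held CTTTGAT, on the strand opposite to the gene, together with a further CTTTG core, 4 GC boxes and a TATA box. The Wnt4 window held 8 GC boxes and no match to the other motifs, and its GC content was 84.3%, against a median of 52.7% over 32851 promoter windows. Lgr4 had 2 CCAAT boxes. Among all windows, 3.73% held CTTTGAT, 53.9% CTTTG, 35.7% the GC box, 37.4% CCAAT, 13.6% TATAAA, 7.81% TGANTCA and 16.3% CAGCTG. Of the 10 genes, 6 had a window in the table, Wnt11 with 2, and AP-1 and E-box matches were in 0 of these 7 windows.

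All 7 windows (Lgr4, Rspo1, Wnt4, Wnt9b, Dkk1 and both of Wnt11) were covered over their full 300 bases by a peak in the cKO and in the control library. Of all promoter windows, 50.6% overlapped a cKO peak and 52.2% a control peak. Overlap is a looser measure than full cover, which was not counted for all windows. Each of the 10 genes had at least 1 peak within 1000 bp of one of its own ends in both libraries. At Wnt9b the only such peak also spanned an end of the neighbouring gene Wnt3, so it cannot be credited to Wnt9b alone. Of the peaks near an end of their own gene, all 12 cKO and 11 of the 12 control peaks had a counterpart. A counterpart is a peak of the other library that overlaps by at least 1 bp. The exception was a control peak of 918 bp beyond the 3' end of Wnt4. The other unmatched peaks of both libraries lay farther from the ends of their genes. The shares over all genes and over all peaks near a gene end are not given here. These counts at gene ends are thus not set against a background.

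Taken over all 10 genes, 70 of 73 cKO peaks had a control counterpart (95.9%, exact 95% interval 88.5 to 99.1%), and 70 of 96 control peaks had a cKO counterpart (72.9%, 62.9 to 81.5%). The intervals cover counting error only. In the whole lists 5.92% of cKO peaks and 25.9% of control peaks had none, so the genes' 3 of 73 and 26 of 96 unmatched peaks were close to the background. At the rates of all peaks in the lists that are alike in significance and in distance to a gene end, 68.6 of 73 cKO peaks and 69.6 of 96 control peaks would have had a counterpart. The genes' peaks covered 110349 bases in the cKO and 127054 bases in the control library, a ratio of 0.869.

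Gene by gene, the cKO library had fewer peaks at 6 of the 10 genes (Lgr4, Wnt11, Wnt4, Wnt7b, Lgr5 and Dkk1), as many at 3 (Wnt5a, Wnt9b and Rspo1) and more at Rspo3. Among 16829 protein-coding genes with a peak in either library, 44.8% had fewer cKO peaks and 6.57% had more. Among the 11590 with 2 to 20 control peaks, the range of the 10 genes, which was set after their values were seen, 57.7% had fewer, so 6 of 10 was near the background. Bases covered were at least 1.5-fold lower in the cKO library at Lgr4 alone when all peaks were used, against 16.6% of genes with a peak and 17.9% of those with 2 to 20 control peaks, and were at least 1.5-fold higher at 0 of the 10, against 2.67% of genes with a peak. The median ratio of bases, cKO over control, was 0.954 over the 10 genes and 0.91 over 16705 genes with a control peak. Wnt5a, Rspo1 and Dkk1 had more bases covered in the cKO library, 3 of 10, against 28.3% of genes with a peak.

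**Figure D1:**
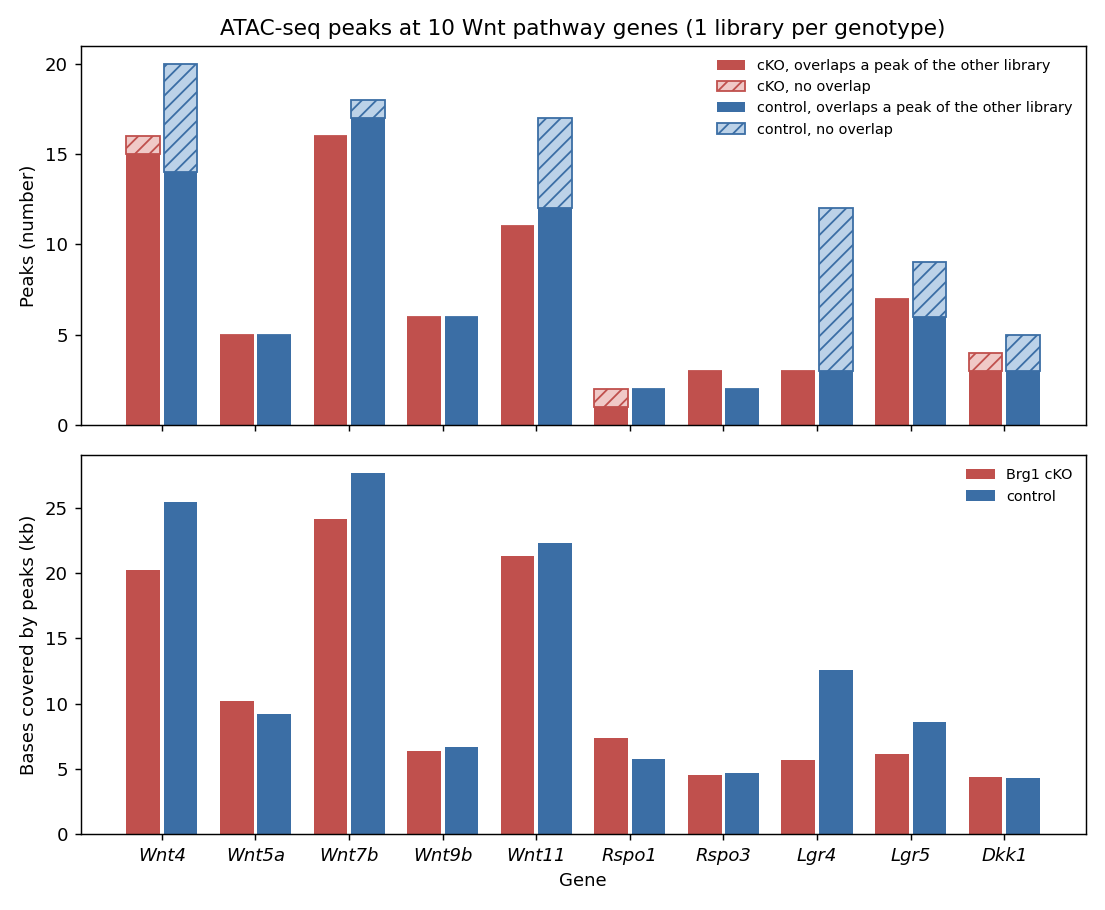
Number of peaks (upper panel; hatched: no overlap with a peak of the other library) and bases covered by them in kb (lower panel) for each gene, Brg1 cKO in red and control in blue, 1 library each. The widest gap is at Lgr4, with 3 cKO and 12 control peaks, and Wnt5a, Wnt9b and Rspo1 have equal numbers.

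Peaks without a counterpart were weak within their own list. Strength is given here as a percentile of the authors' -log10 p within a list, where 100 is the most significant peak, and as 5 equal classes of it. The 3 unmatched cKO peaks stood at percentiles 0.382, 21.5 and 24.3, and the 26 unmatched control peaks between 1.36 and 47.1, with a median of 20.3. All 27 cKO peaks and all 36 control peaks of the genes in the upper 2 classes had a counterpart, against 97.4% of all control peaks in those classes. In the lower 2 classes 28 of 31 cKO peaks had one (90.3%, against 85.6% of all cKO peaks there), and 17 of 41 control peaks had one (41.5%, against 47.4% of all control peaks there). Unmatched control peaks were also narrow, with a median of 570 bp, where matched control peaks of the genes had a median of 1192 bp.

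**Figure D2:**
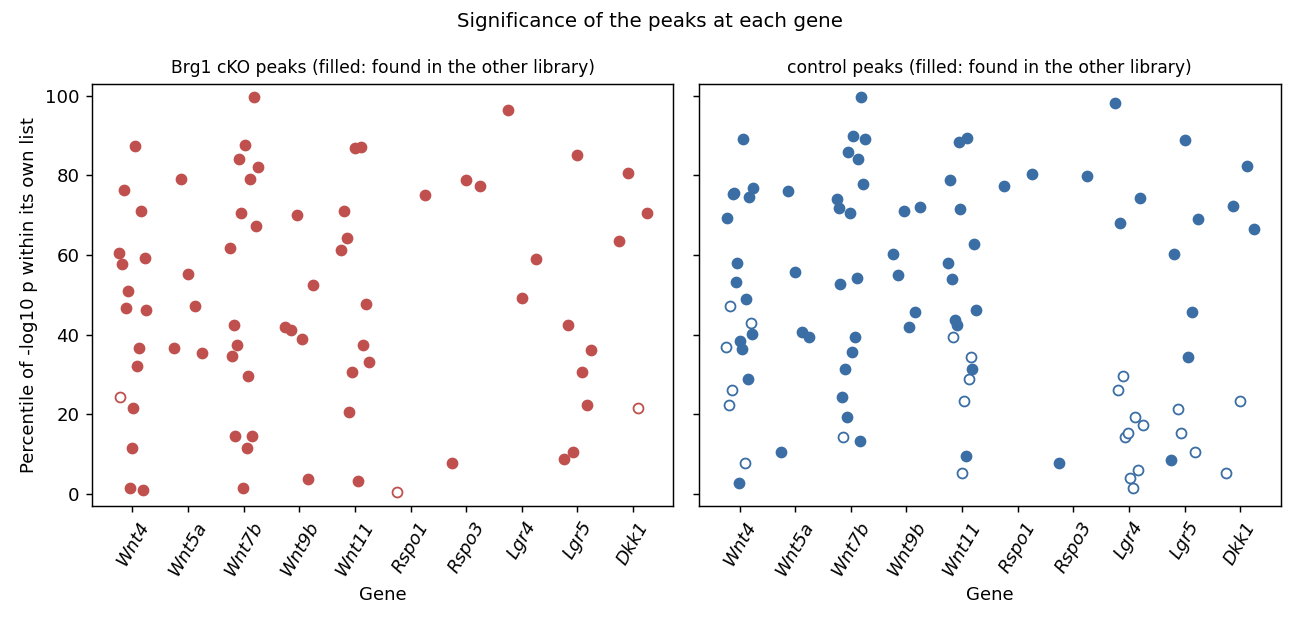
Percentile of -log10 p of each peak within its own list, by gene, for Brg1 cKO peaks (left) and control peaks (right); filled points overlap a peak of the other library and open points do not. Open points lie at or below percentile 24.3 among cKO peaks and at or below 47.1 among control peaks, and Lgr4 holds 9 of them.

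Among the receptors, Lgr4 showed the widest difference of the 10 genes. Lgr4 binds R-spondins, and mice that lack it have small or cystic kidneys. Its gene (mm10 chromosome 2, 109917647 to 110014257, 96611 bp) had 3 peaks covering 5696 bases in the cKO library and 12 peaks covering 12549 bases in the control, a ratio of 0.454. The peak over the promoter was nearly the same in both, 2956 bp wide at percentile 96.3 in the cKO (109916830 to 109919785) and 2943 bp at percentile 98.2 in the control library (109916816 to 109919758). A peak with its cKO summit 14987 bp into the gene had 1825 bp in the cKO and 2067 bp in the control library, and a peak 24.9 kb from the 3' end had 915 bp in the cKO and 992 bp in the control library.

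The other 9 control peaks of Lgr4 had no cKO counterpart, and all 9 lay inside the gene. They ran from 4.07 kb past the start to 9.43 kb before the 3' end, were 380 to 1107 bp wide and stood between percentiles 1.36 and 29.6 of the control list. The nearest cKO peak was 1622 to 27372 bp away from each of them, so none adjoined a cKO peak. The most significant of them was 985 bp wide (109935898 to 109936882), with a -log10 p of 4.99. Peaks of equal strength and position had a counterpart in 6.64 of 12 cases where Lgr4 had 3. Of the 11590 genes with 2 to 20 control peaks, 46 had at least 9 fewer cKO than control peaks. Genes with fewer than 9 control peaks could not reach that difference, and how many of the 11590 could was not counted. The 46 therefore do not show how rare such a fall is among genes with as many control peaks as Lgr4. When the weakest control peaks were dropped until both lists were equally long, Lgr4 had 3 cKO and 5 control peaks and a ratio of 0.746, which is under the 1.5-fold limit. In the more significant 50% of each list it had 2 cKO and 3 control peaks and a ratio of 0.645, past that limit. There the cKO peak of 1825 bp, at percentile 49.1, fell under the cut while its control counterpart was kept.

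The weight of Lgr4 shows in the count by position. All 24 cKO peaks inside the 10 genes had a counterpart, against 24 of the 39 control peaks inside them (61.5%, 44.6 to 76.6%). In the whole lists the shares inside protein-coding genes were 95.4% for the cKO and 72.7% for the control list. Without Lgr4, chosen after its values were seen, 22 of 28 control peaks inside the genes had one (78.6%). Outside the genes 46 of 49 cKO peaks and 46 of 57 control peaks had a counterpart (93.9% and 80.7%), against 92.4% and 76.1% in the whole lists.

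Lgr5, a related receptor that marks cells of the early distal nephron, lies on chromosome 10 (115450314 to 115587780). It had 7 cKO peaks covering 6117 bases and 9 control peaks covering 8556 bases, a ratio of 0.715. All 7 cKO peaks had a counterpart. In the more significant 50% of each list Lgr5 had 1 cKO and 3 control peaks. The ratio of bases was 0.515, past the 1.5-fold limit, but it partly reflects the cut on rank. Control peaks of 998 and 995 bp were kept there, while their cKO counterparts of 971 and 812 bp fell under the cut. The strongest Lgr5 peak, at the high-coordinate end, was 2852 bp wide in the cKO (percentile 85.0) and 3541 bp in the control library (percentile 88.9). The control peak also spanned a separate cKO peak of 291 bp, 105 bp from the wider one. The 3 control peaks without a counterpart were 563, 552 and 496 bp wide and stood at percentiles 21.3, 15.3 and 10.4. Of these, 2 lay inside Lgr5 but nearer to an end of A930009A15Rik, a gene annotated within it. A pair of peaks 29.9 and 30.9 kb beyond the high-coordinate end was nearly equal, 207 and 538 bp in the cKO and 193 and 561 bp in the control library.

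The R-spondin genes had few peaks, and the difference between the libraries was in how their widest peaks were divided. Rspo1 (chromosome 4, 124986401 to 125009102) had 2 peaks covering 7385 bases in the cKO and 2 peaks covering 5785 bases in the control library, a ratio of 1.28. A cKO peak of 6860 bp over its start (124983920 to 124990779), the widest peak of all 10 genes, spanned both control peaks, of 3349 and 2436 bp, and the 1056 bp between them. That gap accounts for most of the added bases. The other cKO peak, 525 bp wide and 7.19 kb upstream, had no control counterpart and stood at percentile 0.382 of its list. Both Rspo1 control peaks were strong, at percentiles 77.2 and 80.3.

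Rspo3 (chromosome 10, 29453106 to 29535867) showed the opposite division. A control peak of 3712 bp at its high-coordinate end (29532868 to 29536579) corresponded to 2 cKO peaks of 2268 and 1161 bp, 255 bp apart. This split is why Rspo3 had 3 cKO peaks and 2 control peaks, while the bases covered were 4497 in the cKO and 4688 in the control library. A weak peak 9.58 kb inside that end had 1068 bp in the cKO (percentile 7.81) and 976 bp in the control library (percentile 7.69), with the same start. Thus a peak near the bottom of both lists was still shared at this gene.

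Among the ligands, Wnt4 had the most control peaks. The gene lies on chromosome 4 (137277635 to 137299501) and had 16 cKO peaks covering 20235 bases and 20 control peaks covering 25404 bases, a ratio of 0.797. Its promoter peak was 2813 bp wide in the cKO (137276198 to 137279010, percentile 87.3) and 3143 bp in the control library (137276186 to 137279328, percentile 89.2), with summits 1 bp apart. Of the 6 unmatched control peaks, 4 lay between 69.4 and 98.6 kb upstream of the start, 1 lay 1.9 kb inside the gene next to the promoter peak and 1 lay 0.94 kb past the 3' end. The last 2 were 437 and 234 bp from the nearest cKO peak, and 1 of the upstream peaks was 185 bp from one. The strongest of the 6, of 724 bp at percentile 47.1, lay 77.0 kb upstream (137200405 to 137201128) and 10980 bp from any cKO peak.

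The cKO library had 1 Wnt4 peak without a control counterpart, 435 bp wide, 88.4 kb upstream (137188964 to 137189398, percentile 24.3). A shared peak 65.3 kb upstream was narrower in the cKO library, with 1069 bp in the cKO and 1690 bp in the control library. The next one, which begins 4 bp apart in the libraries, was wider, with 1627 bp in the cKO and 1473 bp in the control library. All cKO peaks between 27.0 and 88.4 kb upstream lie within Gm31820, an annotated gene that is not protein-coding. With all annotated genes allowed as the nearest, Wnt4 kept 8 cKO and 9 control peaks, so how many distal peaks it has depends on that choice. Of the 13 shared Wnt4 peaks paired 1 to 1, 8 were narrower in the cKO library, the narrowest at 0.633, 0.679 and 0.684 times the control width.

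Wnt11, expressed at the tips of the branching ureteric bud and needed for normal branching, lies on chromosome 7 (98835084 to 98854747). It had 11 cKO peaks covering 21307 bases and 17 control peaks covering 22294 bases. The cKO library had 6 fewer peaks, and the ratio of bases was 0.956. The 10 peaks paired 1 to 1 had a median width ratio of 1.0, with 5 narrower and 5 wider in the cKO library. All 11 cKO peaks had a counterpart. The 5 control peaks without one were 296 to 700 bp wide, covered 2550 bases in all and stood between percentiles 5.33 and 39.5. Both annotated Wnt11 promoters lay under a peak of 5817 bp in the cKO (98834275 to 98840091) and of 5758 bp in the control library (98834420 to 98840177).

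The second broad Wnt11 region lay 19.7 kb upstream. There the cKO library had a peak of 5015 bp (98814265 to 98819279) and the control library 2 peaks of 3185 and 1252 bp, 111 bp apart. The 3 most distant shared peaks, 50.9 to 57.4 kb upstream, were wider in the cKO library, at 1.42, 1.21 and 1.33 times the control width. A shared peak 12.6 kb past the 3' end was also wider, with 1189 bp in the cKO and 943 bp in the control library. The number of distal Wnt11 peaks too depends on the genes allowed as the nearest. With all annotated genes, Wnt11 kept 3 cKO and 5 control peaks.

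Wnt7b, made in the ureteric trunk and needed for the renal medulla, lies on chromosome 15 (85535437 to 85581821) and kept nearly all its peaks. It had 16 cKO peaks covering 24159 bases and 18 control peaks covering 27615 bases, and 16 of 16 and 17 of 18 had a counterpart. At the rates of peaks of equal strength and position, 14.9 of 16 and 13.7 of 18 would have had one. The unmatched control peak was 568 bp wide, inside the gene, at percentile 14.3. The most significant peak of all 10 genes in both libraries lay 52.9 kb beyond the high-coordinate end of Wnt7b, within the annotated D130051D11Rik. It was 1480 bp in the cKO (85634119 to 85635598) and 1526 bp in the control library (85634119 to 85635644), at percentile 99.7 in both. Of the 15 Wnt7b peaks paired 1 to 1, 11 were narrower in the cKO library. The peak at its high-coordinate end was nearly the same, with 4150 bp in the cKO and 4121 bp in the control library. The narrowest relative to control were 0.548 times, at 11.9 kb beyond the low-coordinate end, and 0.545 times, inside the gene. When all annotated genes were allowed as the nearest, Wnt7b kept 6 cKO and 8 control peaks.

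Wnt5a, a ligand best known for signalling without beta-catenin, lies on chromosome 14 (28504543 to 28527448) and had the same 5 peaks in both libraries. They covered 10197 bases in the cKO and 9209 bases in the control library, a ratio of 1.11, and all 5 were at least as wide in the cKO library, at 1.0 to 1.48 times the control width. The 2 broad peaks at the low-coordinate end, of 4143 and 3242 bp in the cKO and 4126 and 2938 bp in the control library, had their summits 2929 and 1816 bp apart between the libraries. Every base of the control peaks lay under a cKO peak. By strength and position, 4.82 of the 5 cKO and 3.51 of the 5 control peaks would have had a counterpart.

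Wnt9b, the inducing ligand of the ureteric bud, lies on chromosome 11 (103727362 to 103775272) and had the same 6 peaks in both libraries, covering 6365 bases in the cKO and 6685 bases in the control library. By strength and position, 5.68 of the 6 cKO and 5.26 of the 6 control peaks would have had a counterpart. The peak over the annotated Wnt9b promoter was 1400 bp in the cKO and 1439 bp in the control library. In each library 3 of the 6 lay inside Wnt9b but closer to an end of the neighbouring ligand gene Wnt3, so they count for Wnt9b only because peaks inside a gene were included. In the more significant 50% of each list Wnt9b had 2 cKO and 4 control peaks and a ratio of bases of 0.591, which is past the 1.5-fold limit, where the ratio was 0.952 with all peaks. That ratio too reflects the cut on rank. The control peaks of 1234 and 870 bp kept there have cKO counterparts of 1100 and 1076 bp. These stand at percentiles 41.8 and 41.1 of the cKO list, under the cut.

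**Figure D3:**
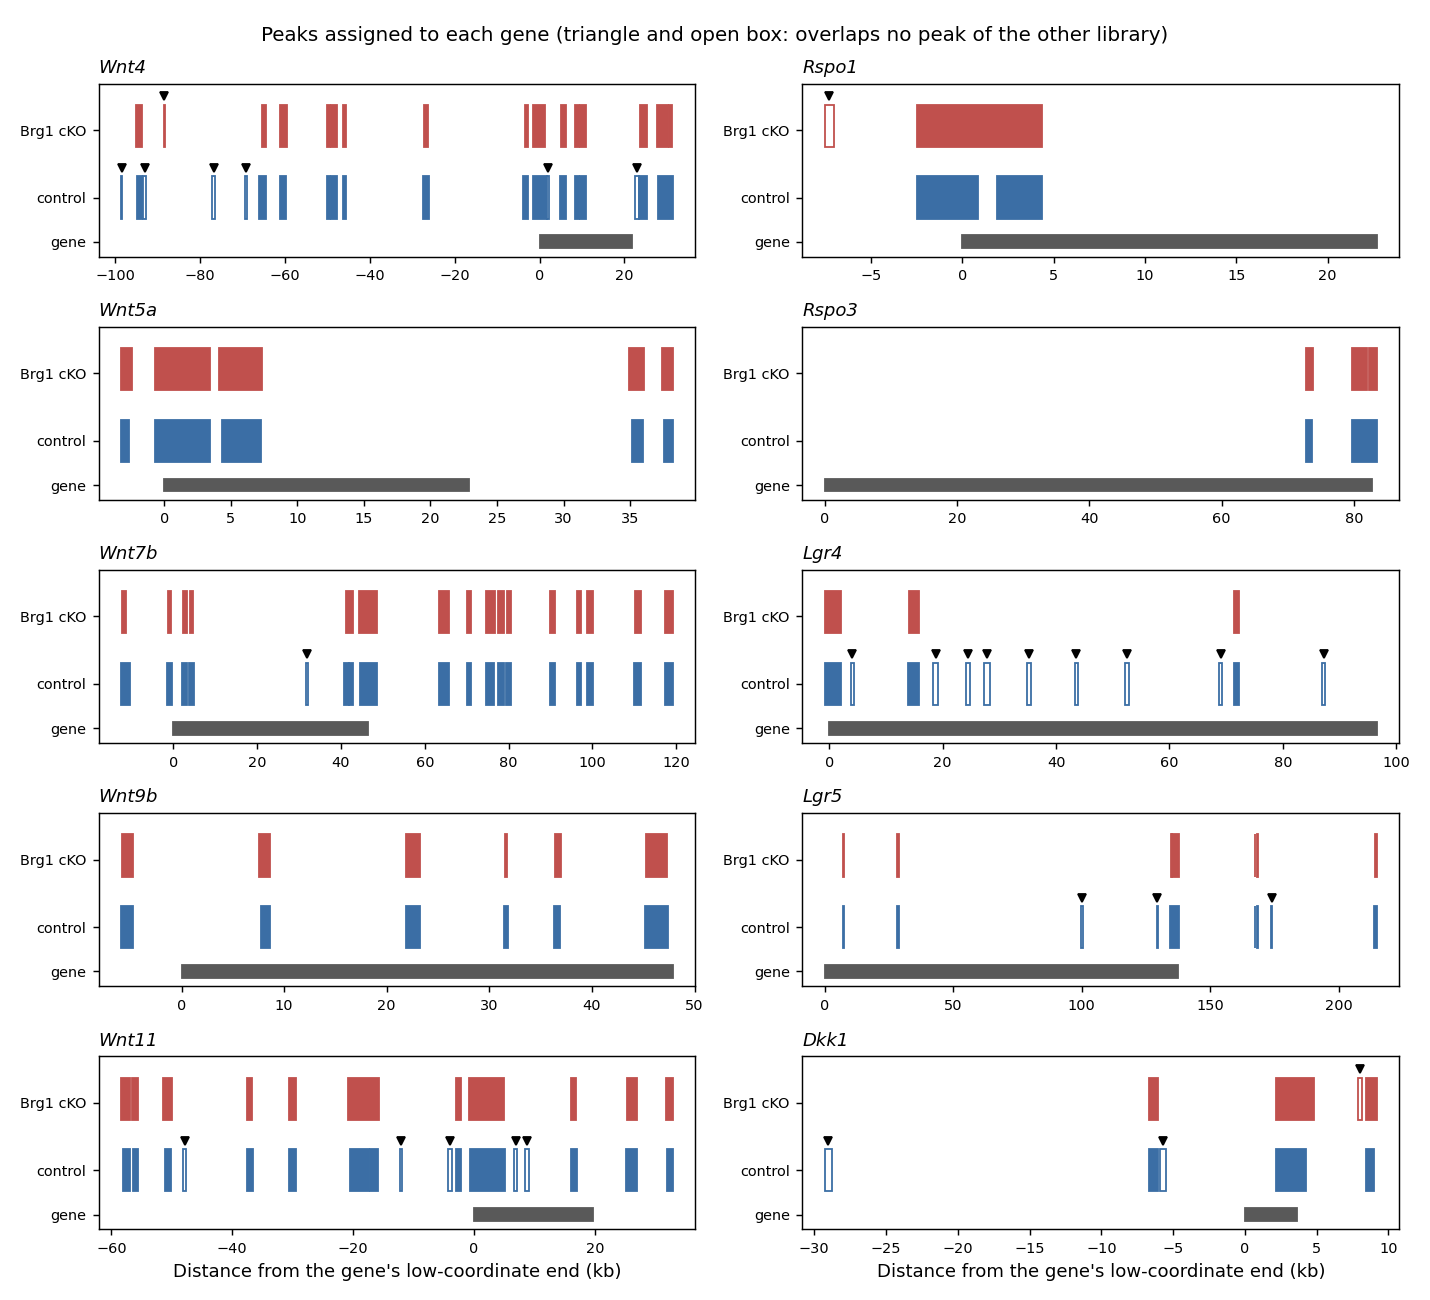
Peaks of the Brg1 cKO library (red, upper row) and the control library (blue, lower row) at each gene, drawn to scale in kb from the low-coordinate end of the gene (grey bar); black triangles and open boxes mark peaks that overlap none of the other library. The 9 triangles at Lgr4 all lie over the gene, whereas Wnt5a and Wnt9b have none.

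Dkk1, the antagonist, is a short gene on chromosome 19 (30545876 to 30549496) with 4 cKO peaks covering 4391 bases and 5 control peaks covering 4269 bases. The promoter peak was 2643 bp in the cKO (30548025 to 30550667) and 2111 bp in the control library (30548037 to 30550147), with summits 1 bp apart. All 3 shared peaks were wider in the cKO library, at 1.04 to 1.31 times the control width. One cKO peak of 297 bp and 2 control peaks of 485 and 428 bp had no counterpart. Of these, the cKO peak lay 242 bp and the control peak of 428 bp lay 128 bp from a peak of the other library, and the control peak of 485 bp lay 22089 bp away from one.

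Where a peak had exactly 1 counterpart that had no other, the widths could be compared pair by pair. The 61 such pairs had a median width of 1085 bp in the cKO and 1131 bp in the control library, and a median ratio of 0.982, the same as over all 54820 such pairs in the lists. Narrower in the cKO library were 34 of 61 (55.7%), against 58.1% of all pairs. The genes differed among themselves: the 5 pairs of Wnt5a and the 3 of Dkk1 all had ratios of 1.0 or more, with a median of 1.24 at Wnt5a, whereas the 15 of Wnt7b and the 6 of Wnt9b had 0.951 and 0.939. Summits lay within 50 bp of each other in 41 of 61 pairs (67.2%, against 77.1% of all pairs). They were more than 500 bp apart in 4 (6.56%, against 1.85% of all pairs), of which 2 were at Wnt5a.

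**Figure D4:**
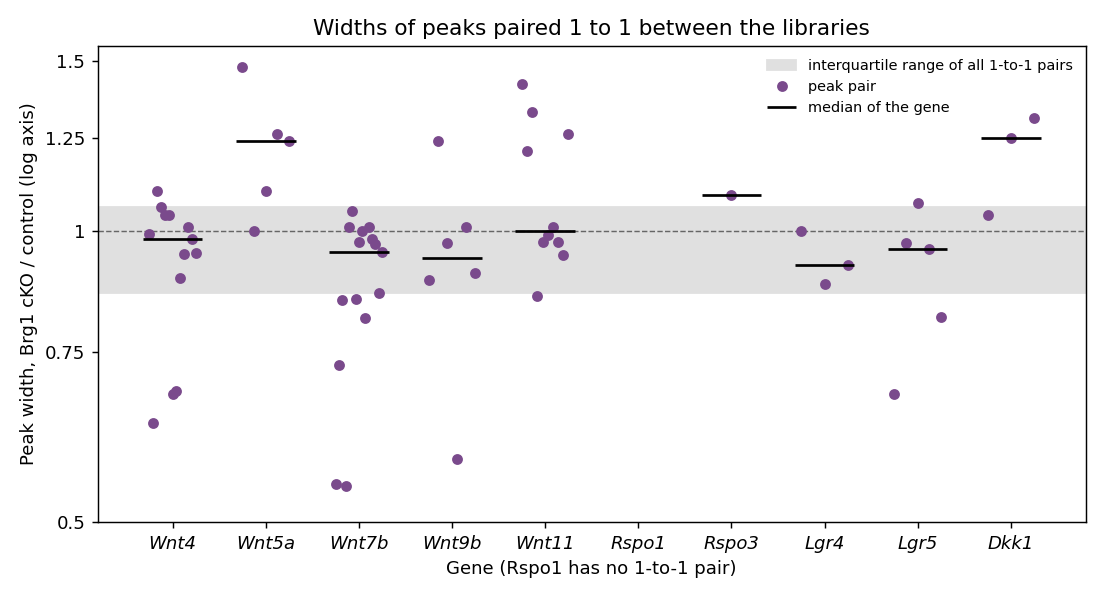
Ratio of peak widths, Brg1 cKO over control, on a log axis, for the 61 pairs of peaks matched 1 to 1, by gene; bars are medians per gene and the grey band is the interquartile range of all pairs in the lists, 0.863 to 1.06. The pairs of Wnt5a and Dkk1 lie at or above 1, and those of Wnt7b lie mostly below it.

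Divided and joined peaks were a small part of the differences. Of the 73 cKO peaks 3 (4.11%), at Wnt7b, Wnt11 and Rspo1, spanned 2 control peaks, against 1.45% of all cKO peaks. In the other direction 3 control peaks of the 96 (3.12%), at Wnt4, Lgr5 and Rspo3, spanned 2 cKO peaks, against 1.29% of all control peaks. The Wnt4 case was a control peak of 3461 bp past the 3' end of the gene (137305662 to 137309122), called as peaks of 2595 and 743 bp in the cKO library, 163 bp apart. The genes' peaks were wide in general, 15 of 73 cKO peaks (20.5%) and 18 of 96 control peaks (18.8%) being over 2000 bp, against 7822 of 61210 cKO and 8530 of 77529 control peaks in the lists.

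The rest of the ligand and receptor system was described by a list of 50 other Wnt ligands, R-spondins, receptors, co-receptors and secreted or membrane modulators. Of these, 49 had a peak in either library and 1 had none by the same rule. The cKO library had fewer peaks at 27, as many at 19 and more at 3, which is 55.1% and 6.12% of them, beside the 44.8% and 6.57% of all genes with a peak. Their 282 of 294 cKO peaks (95.9%) and 281 of 363 control peaks (77.4%) with a counterpart stood beside 95.9% and 72.9% at the 10 genes. In each library, 3 peaks inside Wnt9b but nearest to Wnt3 were counted for both genes, so the sets share these peaks. The median ratio of bases was 0.929, beside 0.91 over all genes with a control peak. Bases were at least 1.5-fold lower in the cKO library at 5 of the 49 and at least 1.5-fold higher at 0, beside 16.6% and 2.67% of all genes with a peak. By this count of bases the list did not exceed the background. Its 55.1% with fewer peaks was above the 44.8% of all genes with a peak. It was below the 57.7% of genes with 2 to 20 control peaks, although genes of the list had 0 to 28.

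By number of peaks, though not by ratio of bases, the largest differences in that list were at the co-receptor genes that Wnt ligands and Dkk1 share. Lrp5 had 10 cKO and 17 control peaks, with a ratio of bases of 0.591, and Lrp6 had 8 cKO and 14 control peaks, with a ratio of 0.572. The Frizzled gene Fzd10, tied with Sfrp1, followed with 7 cKO and 12 control peaks and a ratio of 0.723. More peaks in the cKO library were called at the antagonist genes Sfrp4, with 2 cKO peaks and 1 control peak, and Sost, with 7 and 6, and at Wls, which encodes the carrier that brings Wnt ligands to the cell surface, with 5 cKO and 4 control peaks. Sost and Wls nevertheless had fewer bases covered in the cKO library, with ratios of 0.887 and 0.874.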

How the data were processed

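ATAC-seq peak lists of 2 libraries, Brg1 cKO and control, were used as deposited. Per the submitters' processing notes, Trim Galore, SAMtools and Genrich were used on mm10; the aligner, versions, settings and any shift of read ends are unknown (not given in the sources used here). Neither the deposited score per peak, a whole number of at most 1000, nor the deposited signal per peak was used, since no scaling between libraries is recorded. The deposited -log10 p served to rank peaks within a list, and the deposited -log10 q was at least 1.35 (cKO) and 1.42 (control), so weaker peaks are not in the lists. Depth is unknown.

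Start coordinates were turned to 1-based. Gene bounds were read from RefSeq annotation for GRCm38.p6, given here without exons or strand, so peaks inside genes were not divided into exon and intron; strand came from the RefSeq promoter table, which held 6 of the 10 genes (not Wnt5a, Wnt7b, Rspo3 and Lgr5). For each peak the gene end nearest to the summit within 100000 bp was taken, and summits inside a gene were added. Overlap of at least 1 bp made a counterpart. Expected numbers came from all peaks of the same strength class (5 classes) and position (within 1000 bp of any gene end or not). Intervals are exact Clopper-Pearson. Assignment and overlap were tested on simulated data. Analyses used Python 3.11.15, pandas 2.3.3, numpy 2.4.6 and scipy 1.17.1. The genes, lists and alternatives were chosen with earlier results of these data known. All 10 genes are named; of the wider list, the 3 with the largest deficit and the 3 with the largest excess of cKO peaks are named.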

Additional observations from a re-analysis of the deposited data

How the results depend on the processing

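Of 7 alternatives, 3 moved a result over all 10 genes, whose summed bases stayed lower in the cKO library under every alternative that gave a ratio (0.854 to 0.971). With the more significant 50% of each list, 33 cKO and 44 control peaks remained. A counterpart was found for 100% of these cKO peaks and for 34 of the 44 control peaks (77.3%). The shares of the whole lists under this cut and the next were not counted. When the weakest control peaks were dropped until both lists were equally long, the share was 87.7% for cKO and 82.9% for control peaks, and 3 genes had fewer cKO peaks instead of 6; this setting evens the lists by its construction. Directions at single genes turned there: Wnt7b had 16 cKO and 15 control peaks, Lgr5 had 7 and 6, Wnt5a had 5 and 4, and the ratio of bases at Rspo3 was 1.21. With all annotated genes allowed, Dkk1 had 3 cKO and 2 control peaks, and by nearest end alone the ratio at Wnt9b was 1.01. With all annotated genes allowed as the nearest, 41 cKO and 55 control peaks belonged to the genes, since fewer peaks then have these genes as the nearest. Overlap of 50% of both peaks gave 90.4% of cKO and 68.8% of control peaks, within the intervals above. Leaving out Lgr4, an alternative added after the data were seen, gave 79.8% of control peaks with a counterpart and a ratio of bases of 0.914. No paired analysis was possible because each genotype has 1 library, and for the same reason no replicate could be left out. Peaks just above the caller's limit in one library and just below it in the other count as unmatched, and with the depth unknown this cannot be told apart from a difference between genotypes.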
